A study of Mus musculus with 4 samples.

Results

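The genes described here set the G1 checkpoint of the cell cycle: the D cyclins Ccnd1, Ccnd2 and Ccnd3, cyclin E (Ccne1), the kinases Cdk4, Cdk6 and Cdk2, the CIP/KIP inhibitors Cdkn1a (p21) and Cdkn1b (p27), and Rb1. They were taken by name, 10 of the 25437 gene names in the files, and read in the epiblast, endoderm and trophoblast of mouse embryos in diapause, 30 hours after a signal that ends it, and at E5.5, a stage of implanted embryos. All 10 were listed in the 4 libraries' tables, although Ccnd2 or Cdk6 had 0 UMIs (unique molecular identifiers, 1 per captured transcript) in some lineage sums.

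All embryos were wildtype B6C3F1/J. The EDG7.5 and EDG9.5 libraries held blastocysts in diapause, the pause in which a blastocyst stays unattached in the uterus. The Reactivated library held EDG9.5 embryos 30 hours after oestradiol (E2), and the E5.5 library held embryos taken from implantation sites. Each of the first 3 libraries pooled about 200 to 250 blastocysts flushed from the uterus, and E5.5 pooled 50 embryos. Cells were freed with TrypLE and captured in BD Rhapsody microwells for whole-transcriptome, single-cell sequencing. With 1 library per stage, stage, pool and library cannot be told apart, no ratio has a replicate check, and no test was made. An E4.5 stage was not analysed here.

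As background, D cyclins bind CDK4 or CDK6 when growth signals are present, and the complexes phosphorylate the RB protein. RB then releases E2F factors, which switch on cyclin E and the genes of DNA replication, and cyclin E with CDK2 drives entry into S phase. The inhibitors p21 and p27 bind CDK2 complexes and hold cells in G1, p21 as a target of p53 and p27 often in quiescent cells. In embryonic stem cells, cells of the same origin as the epiblast, G1 is short and cyclin E is high. In diapause, proliferation of the blastocyst is held back.

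Promoter sequences are shown for Ccne1, Cdk4, Cdkn1b and Cdk2, because Ccne1 and Cdk4 were higher and Cdkn1b lower in all 3 lineages of the Reactivated library than at EDG9.5, and Cdk2 is the kinase of cyclin E. Each is the 250 bases before the gene's start in RefSeq's GRCm38.p6 table, 5′ to 3′ on the gene's strand. The capitals mark matches on both strands to 1 of 5 motifs searched: GGGCGG (the core of SP and KLF sites) in Ccne1, CACGTG (an E-box that MYC-family factors can bind) in Cdk4, CCAAT (the NF-Y box) in Cdkn1b, and TTCCCGC (an E2F site) in Cdk2. The fifth motif was GTAAACA, a forkhead site.
Ccne1, chr7:38107491-38107740, minus strand: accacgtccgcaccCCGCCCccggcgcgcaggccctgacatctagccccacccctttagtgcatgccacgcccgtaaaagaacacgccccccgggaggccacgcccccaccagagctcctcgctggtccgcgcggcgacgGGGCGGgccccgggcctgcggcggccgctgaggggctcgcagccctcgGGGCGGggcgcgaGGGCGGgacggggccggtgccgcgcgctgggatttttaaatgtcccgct
Cdk4, chr10:127063285-127063534, plus strand: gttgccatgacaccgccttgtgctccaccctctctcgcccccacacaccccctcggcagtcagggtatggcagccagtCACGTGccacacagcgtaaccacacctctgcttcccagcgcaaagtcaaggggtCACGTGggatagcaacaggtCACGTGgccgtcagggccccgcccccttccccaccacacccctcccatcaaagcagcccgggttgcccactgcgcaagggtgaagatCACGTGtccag
Cdkn1b, chr6:134920151-134920400, plus strand: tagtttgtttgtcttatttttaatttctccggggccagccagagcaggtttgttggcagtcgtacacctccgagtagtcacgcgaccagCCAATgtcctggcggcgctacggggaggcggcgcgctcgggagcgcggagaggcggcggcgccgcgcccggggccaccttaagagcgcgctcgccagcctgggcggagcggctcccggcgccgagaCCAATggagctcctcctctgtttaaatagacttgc
Cdk2, chr10:128705052-128705301, minus strand: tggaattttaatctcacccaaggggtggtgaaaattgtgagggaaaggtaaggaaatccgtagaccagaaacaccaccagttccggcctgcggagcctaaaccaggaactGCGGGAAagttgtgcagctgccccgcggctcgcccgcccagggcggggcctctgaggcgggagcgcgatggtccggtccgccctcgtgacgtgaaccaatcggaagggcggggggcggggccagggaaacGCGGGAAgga

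The Cdk4 window held CACGTG 4 times, a motif that 6.02% of 32851 promoter windows of the same length held at least once. The Ccne1 window held GGGCGG or its complement 4 times, against 32.7% of windows with a match. The Cdk2 window held the E2F letters 2 times (3.82% of windows), and the Cdkn1b window held CCAAT 2 times (33.8% of windows). Only 1 motif is in capitals in each window, and others matched as well. GGGCGG matched 5 times in the Cdk2 window, more than in that of Ccne1, and 1 time each in those of Cdk4 and Cdkn1b. CCAAT matched 1 time in the Cdk2 window, and Ccne1 had 0 E2F matches. No matches of different motifs overlapped. A match describes letters only and not a bound site. Promoters of 7 of the 10 genes were in the table, and those of Ccnd1, Ccnd2 and Rb1 were not. Those of Ccnd3, Cdk6 and Cdkn1a were in it and are not shown. The choice does not set the shown genes apart, since Ccnd3 CPM was also higher in all 3 lineages of Reactivated than at EDG9.5. Cdk4 in each lineage and Cdkn1b in endoderm stayed within 2-fold in that comparison.

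The libraries held from 677 to 9560 cell barcodes with 9270833 to 87507141 UMIs. Any 2 libraries shared 1 to 27 barcodes. After filtering, the epiblast held 488, 582, 205 and 2641 cells from EDG7.5 to E5.5, the endoderm 580, 870, 303 and 2994, and the trophoblast 590, 950, 163 and 3628. The lineages were rebuilt by clustering each library. In every library each lineage had its own marker list highest, at 3116 to 16630 CPM (counts scaled to a fixed total of UMIs) in its sum. The clusters were named from these same lists, so this is no separate check of the names. Lists of the other lineages moved with stage: from EDG7.5 to E5.5 the epiblast list in trophoblast was at 160.2, 155.9, 449.1 and 938.7 CPM, and the trophoblast list in endoderm at 98.6, 116.4, 233.2 and 701.1 CPM. Summed lists of other cells were low: the uterine epithelium list reached at most 21.85 CPM, the immune list 46.0 CPM, decidual stroma 88.1 CPM and endothelium 183.6 CPM. The trophoblast was made of different clusters in each stage. In diapause they were led by Gjb2 and S100a16 or by Msx1 and H19, in the Reactivated library mostly by Hand1 and Elf5 or by Crip1 and Cdx2, and at E5.5 by Esrrb and Cdx2, Irx3, Hand1, Prl3d1 or Phlda2. The median UMIs per cell by lineage were 3691.5 to 5503 in the diapause libraries, 11413 to 14262 in the Reactivated library and 8665 to 8747 at E5.5. Values are given as CPM, so they are shares of the lineage's UMIs and not amounts per cell. Intervals are exact 95% intervals that cover counting error only. Levels are compared between libraries and lineages, never between genes, since lengths and capture differ.

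Between the diapause libraries EDG7.5 and EDG9.5, no value of these genes was 2-fold apart: of 30 gene and lineage values, 0 were higher and 0 lower, 27 were within 2-fold and 3 were below the 20 UMIs set as the minimum over both sums. Over all genes measured in that comparison, 0.12% were higher and 0.0706% lower. A value counted as 2-fold when its log2 ratio, with 10 CPM added to both sides, reached 1. From EDG9.5 to the Reactivated library 6 values were higher and 3 lower, where 8.51% of all measured gene values were higher and 14.5% lower. The 6 were Ccne1 in all 3 lineages, Ccnd1 in epiblast and trophoblast, and Ccnd2 in epiblast. The 3 lower values were Cdkn1b in epiblast and trophoblast and Cdkn1a in trophoblast.

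From EDG9.5 to E5.5, 8 values were higher and 5 lower, against 9.12% and 11.0% of all gene values. The higher values were Ccne1 and Cdk4 in every lineage, Ccnd1 in epiblast and Ccnd3 in trophoblast. The lower values were Cdkn1a in epiblast and trophoblast, Cdkn1b in epiblast and endoderm, and Ccnd2 in endoderm. This comparison shares the EDG9.5 library with the one before, so the 2 are not independent. From the Reactivated library to E5.5, 2 values were higher and 4 lower, against 4.11% and 3.68% of all gene values. Those were Ccne1 and Cdkn1b in trophoblast, higher, and Ccnd2 and Cdkn1a in epiblast and Cdk2 in epiblast and endoderm, lower. Each of these but Ccne1 fell short of 2-fold under 1 alternative. With 30 CPM added Cdkn1b was at 0.73, Ccnd2 at -0.57, Cdkn1a at -0.85 and endoderm Cdk2 at -0.997, and after thinning each cell to 1000 UMIs epiblast Cdk2 was at -0.94. The plot of log2 ratios shows the 3 comparisons that start in diapause.

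**Figure D1:**
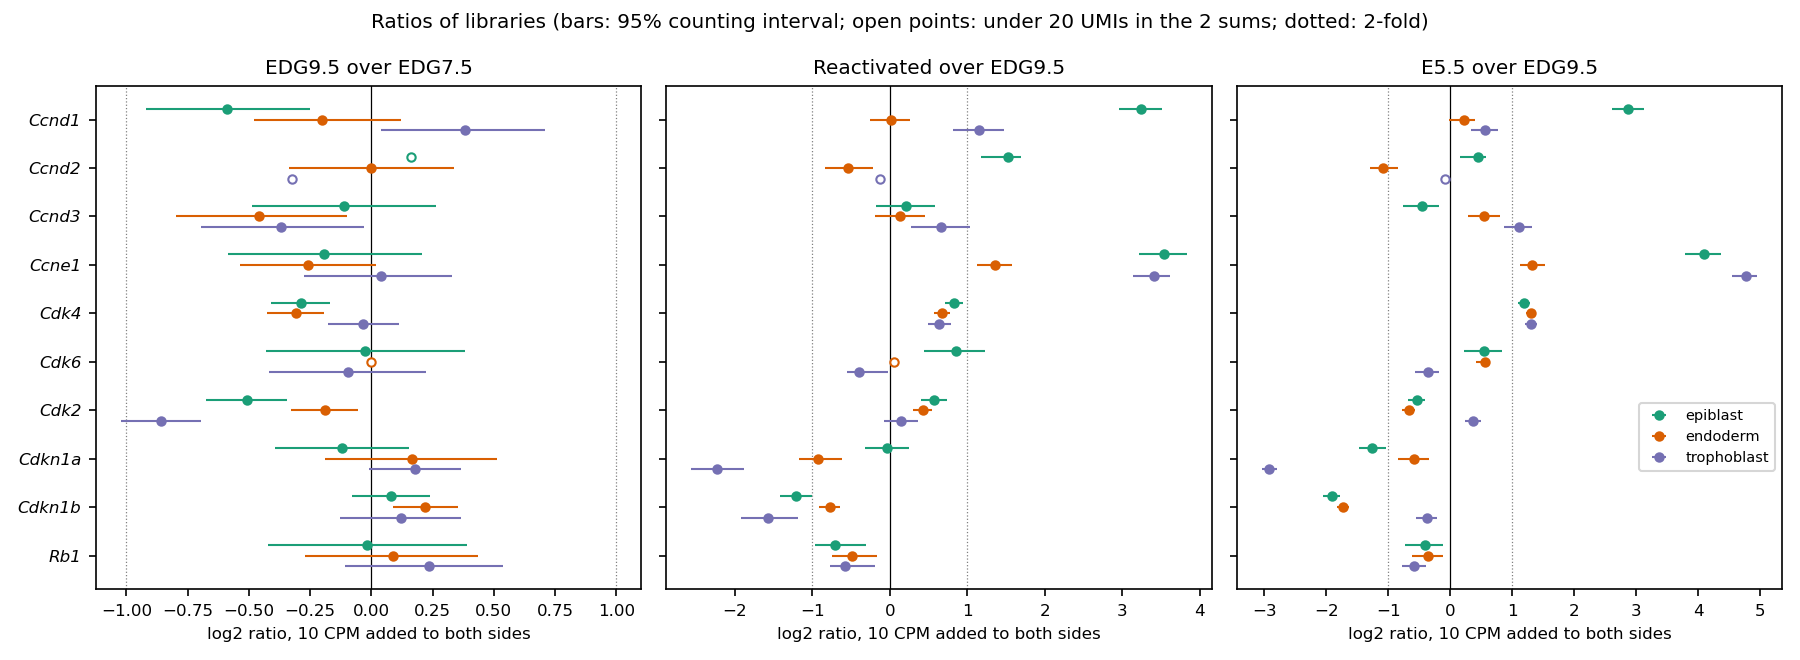
Log2 ratio of CPM (10 CPM added to both sides, x axis) of the 10 genes in epiblast, endoderm and trophoblast, in 3 panels that set EDG9.5 against EDG7.5, then Reactivated and E5.5 against EDG9.5, with exact 95% counting intervals as bars, 2-fold as dotted lines and open points for fewer than 20 UMIs. All points of the first panel lie between the dotted lines, and Ccne1 lies to the right of them in every lineage of the other panels.

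Ccnd1 (cyclin D1, chr7:144929931-144939831, GRCm38.p6), the D cyclin induced by growth factor and WNT signals, was highest in the epiblast in every library, and its epiblast level was far higher in the Reactivated and E5.5 libraries than in diapause. Its epiblast CPM was 44.5 at EDG7.5 (95% interval 37.1 to 52.9), 26.25 at EDG9.5 (20.3 to 33.4), 332.5 for Reactivated (310.5 to 356) and 255 at E5.5 (248.7 to 262). Both were thus above both diapause libraries, with no overlap of intervals. The Reactivated level was 12.7 times the EDG9.5 level (9.86 to 16.5) and the E5.5 level was 9.72 times (7.63 to 12.6). Of the 66 UMIs in the EDG9.5 epiblast, 11 came from 1 cell. EDG9.5 was also lower than EDG7.5, at 0.590 times (0.432 to 0.801), short of 2-fold with a log2 ratio of -0.59. After thinning each cell to 1000 UMIs that ratio was -1.18, past 2-fold.

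The share of epiblast cells with a Ccnd1 UMI was 17.0%, 8.08%, 88.8% and 82.1% from EDG7.5 to E5.5. Cells of the Reactivated and E5.5 libraries were deeper, so each cell was also thinned to 1000 UMIs, which every kept cell had. Then the shares were 4.71%, 1.89%, 23.9% and 22.6%, in the same direction. In endoderm, at like depths in each library, the thinned shares were 0% at EDG7.5, EDG9.5 and Reactivated, with exact upper limits of 0.634%, 0.423% and 1.21%, and 0.601% at E5.5. The thinned epiblast shares were above these in every library, so they were not a like low share in all cell types.

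The endoderm held little Ccnd1 at any stage, with 4.30, 2.44, 2.57 and 4.50 CPM. In the Reactivated library the epiblast level was 129 times the endoderm level (73.6 to 251), against 10.3 times at EDG7.5. Trophoblast was between the other lineages: 9.08 CPM at EDG7.5 (6.13 to 12.97), 14.9 at EDG9.5 (11.55 to 18.9), 45.2 for Reactivated (36.35 to 55.6) and 26.6 at E5.5 (24.9 to 28.4). There the Reactivated level was 3.04 times that of EDG9.5 (2.19 to 4.23), and E5.5 was 1.79 times, within 2-fold. With 30 CPM added the log2 ratio of Reactivated to EDG9.5 was 0.74, short of 2-fold. The epiblast list in these trophoblast sums was higher in Reactivated and E5.5 too (449.1 and 938.7 CPM, against 155.9 at EDG9.5), and its part in the Ccnd1 values was not tested.

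Ccnd2 (cyclin D2, chr6:127125162-127152188) was highest in the endoderm in both diapause libraries. Its endoderm CPM was 18.7 at EDG7.5 (14.3 to 24.1), 18.7 at EDG9.5 (14.6 to 23.7), 9.86 for Reactivated (7.22 to 13.15) and 3.58 at E5.5 (2.90 to 4.36). The diapause libraries overlapped and both lay above the Reactivated and E5.5 ones. E5.5 was 5.23 times lower than EDG9.5 (3.79 to 7.20). The log2 ratio of -1.08 fell short of 2-fold under 3 alternatives, at -0.90 with TMM scaling, -0.93 after thinning and -0.54 with 30 CPM added.

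The endoderm too was made of different clusters at each stage, and Ccnd2 was uneven among them. At E5.5, 72.2% of its endoderm UMIs lay in the cluster led by Lama1 and Fst, 369 of 2994 cells, at 27.1 CPM (21.1 to 34.2), while the other clusters of that endoderm had 0.331 to 7.86 CPM. In Reactivated the cluster led by Lamc1 and Cyp4f14 had 23.8 CPM (16.8 to 32.7) and the one led by Pga5 and Irs4 had 0 UMIs. Those high clusters were not below the diapause sums. The part of the cluster makeup in the lower endoderm sums was not tested.

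In epiblast the order of Ccnd2 was different: 0 UMIs were found at EDG7.5, which allows up to 1.05 CPM at 3 UMIs, then 1.19 CPM at EDG9.5 from 3 UMIs, 22.2 for Reactivated (16.85 to 28.8) and 5.22 at E5.5 (4.33 to 6.24). The Reactivated epiblast therefore stood above the diapause libraries and E5.5, at 18.7 times EDG9.5, with a wide counting interval of 6.07 to 93.1. With 30 CPM added its log2 ratio was 0.74, short of 2-fold. Trophoblast held 0 to 3.63 CPM in all libraries.

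Ccnd3 (cyclin D3, chr17:47505051-47599689) was present in all 3 lineages at every stage. Its epiblast CPM was 22.75, 20.3, 24.98 and 11.95 from EDG7.5 to E5.5, and its endoderm CPM was 15.7, 8.68, 10.5 and 17.4. In trophoblast it was 12.1 at EDG7.5 (8.65 to 16.5), 7.12 at EDG9.5 (4.87 to 10.0), 17.1 for Reactivated (11.8 to 23.9) and 26.8 at E5.5 (25.1 to 28.6). Of these ratios only trophoblast E5.5 over EDG9.5 passed 2-fold, at 3.77 times (2.65 to 5.54). Its log2 ratio of 1.10 was short of 2-fold under 3 alternatives, at 0.95 with a mitochondrial limit of 10%, 0.96 with a Leiden resolution of 0.5 and 0.61 with 30 CPM added.

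**Figure D2:**
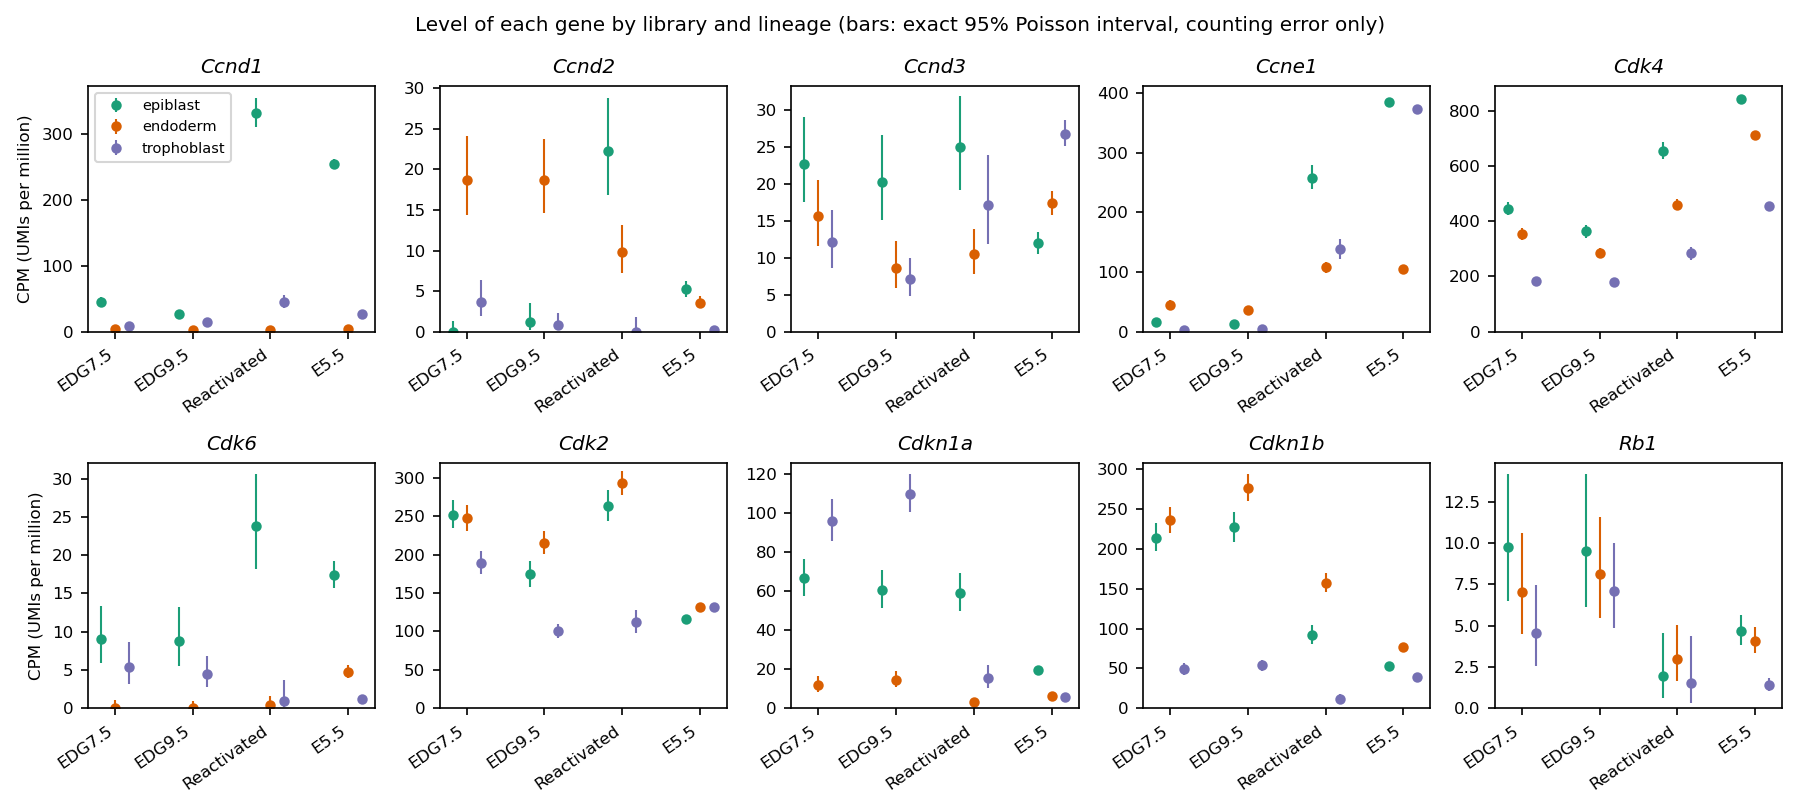
CPM of each of the 10 genes (y axis, one panel per gene) in the 4 libraries (x axis, by stage) for epiblast, endoderm and trophoblast sums, with exact 95% Poisson intervals as bars. Ccnd1 is highest in the epiblast of the Reactivated library at 332.5 CPM, Ccne1 reaches 384 CPM in epiblast and 372 CPM in trophoblast of E5.5, and Cdkn1b is highest in the endoderm of EDG9.5 at 276.5 CPM.

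The D cyclin mix therefore differed between lineages, except between epiblast and trophoblast at EDG9.5, and it shifted with stage. Of D cyclin UMIs in epiblast, Ccnd1 gave 66.15% at EDG7.5 (exact Clopper-Pearson 95% interval 59.0 to 72.8), 55% at EDG9.5 (45.65 to 64.1), 87.6% for Reactivated (85.3 to 89.6) and 93.7% at E5.5 (93.1 to 94.3). In endoderm Ccnd2 gave 48.4% (39.4 to 57.5), 62.7% (52.99 to 71.8), 43.0% (33.5 to 52.9) and 14.1% (11.55 to 16.9) in the same order. Ccnd3 gave most of the rest there, with 29.1% at EDG9.5 and 68.3% at E5.5. In trophoblast Ccnd1 gave 36.6%, 65.05%, 72.6% and 49.6%, and Ccnd2 was at 0.393% of D cyclin UMIs at E5.5.

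The sum of the 3 D cyclins also differed by lineage. In epiblast it was 67.2, 47.7, 379.7 and 272 CPM from EDG7.5 to E5.5. In endoderm it was 38.7, 29.8, 22.9 and 25.45 CPM. In trophoblast it was 24.8, 22.9, 62.3 and 53.6 CPM. The D cyclin total of the Reactivated and E5.5 libraries was thus above that of diapause in epiblast and trophoblast and not in endoderm.

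**Figure D3:**
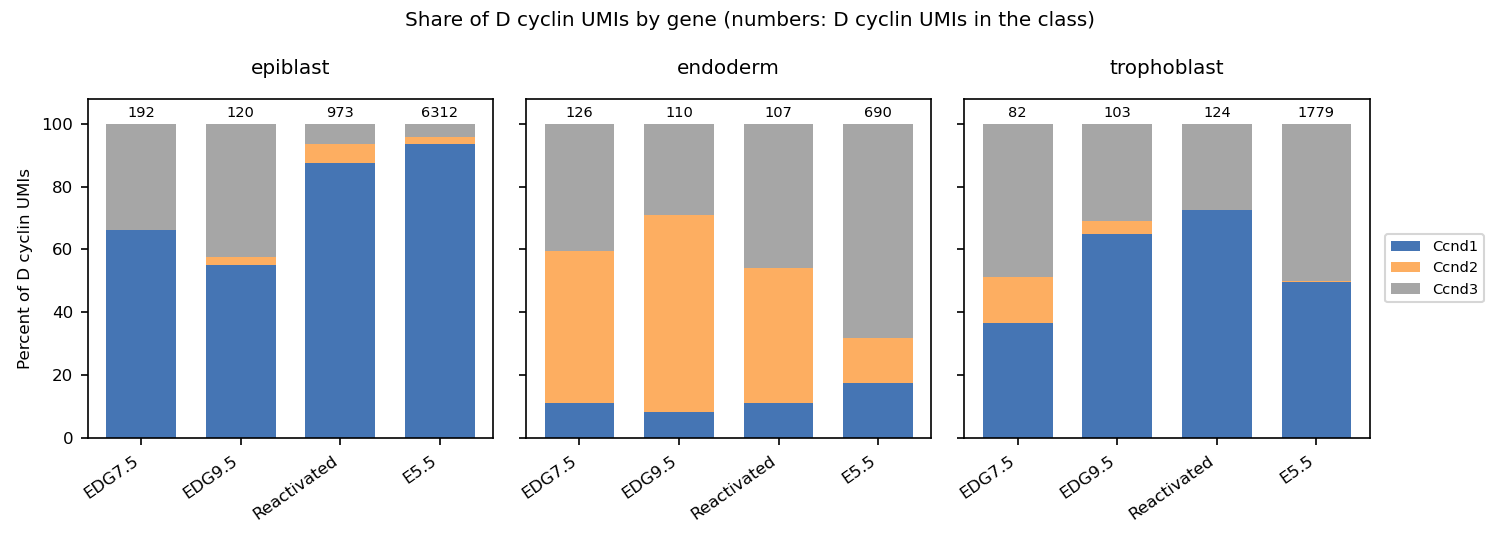
Stacked bars give the percent of D cyclin UMIs from Ccnd1, Ccnd2 and Ccnd3 (y axis) in each library (x axis) for epiblast, endoderm and trophoblast, with the number of D cyclin UMIs printed at each bar. Ccnd1 fills 93.7% of the epiblast bar at E5.5, Ccnd2 fills 62.7% of the endoderm bar at EDG9.5, and Ccnd3 fills 68.3% of the endoderm bar at E5.5.

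Ccne1 (cyclin E1, chr7:38097984-38107490), the partner of CDK2 at S phase entry, had the largest log2 ratio of the 10 genes in each lineage of Reactivated over EDG9.5. In trophoblast its CPM was 3.63 at EDG7.5 (1.88 to 6.35, from 12 UMIs), 4.002 at EDG9.5 (2.37 to 6.33, from 18 UMIs), 138 for Reactivated (122 to 156) and 372 at E5.5 (366 to 379). The diapause libraries overlapped, and Reactivated and E5.5 lay far above them and apart from each other. The ratio to EDG9.5 was 34.5 for Reactivated (21.4 to 59.1) and 93.0 at E5.5 (58.8 to 157), and E5.5 was 2.69 times Reactivated (2.39 to 3.05). Different trophoblast clusters, led by the genes given for each stage, hold these sums.

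In epiblast Ccne1 was at 16.45 CPM at EDG7.5 (12.1 to 21.9), 13.1 at EDG9.5 (9.03 to 18.4), 258 for Reactivated (239 to 278) and 384 at E5.5 (376 to 392). The Reactivated epiblast was 19.7 times EDG9.5 (13.9 to 28.8). In endoderm the values were 45.1 (38.1 to 53.05), 36.1 (30.2 to 42.8), 107.6 (98.4 to 117) and 105 (101 to 109). Endoderm therefore had the highest Ccne1 of the lineages in diapause and the lowest in Reactivated and E5.5. Its ratio of Reactivated to EDG9.5, 2.98 (2.46 to 3.64), was smaller than those of epiblast and trophoblast, with intervals that do not overlap.

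The share of trophoblast cells with a Ccne1 UMI was 2.03%, 1.37%, 58.3% and 90.3%, and after thinning 0.170%, 0.211%, 13.5% and 30.8%. The thinned trophoblast shares in diapause were below the thinned endoderm shares of the same libraries, 4.48% and 2.53%. In E5.5 the order was the other way, with 30.8% in trophoblast and 10.5% in endoderm.

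Cdk4 (chr10:127063535-127067288), the kinase that pairs with D cyclins, was detected throughout and was higher in the Reactivated and E5.5 libraries in every lineage. Its CPM, from EDG7.5 through EDG9.5 and Reactivated to E5.5, was 446, 363, 654.5 and 842 for epiblast. It was 353, 283, 459 and 712 for endoderm and 183, 178, 284 and 454.7 for trophoblast. The lineages kept the order epiblast, endoderm, trophoblast in all 4 libraries. Reactivated over EDG9.5 was within 2-fold, at 1.80 times in epiblast (1.66 to 1.96), 1.62 in endoderm (1.505 to 1.75) and 1.59 in trophoblast (1.43 to 1.78). E5.5 over EDG9.5 passed 2-fold, at 2.32 (2.17 to 2.48), 2.51 (2.36 to 2.68) and 2.55 (2.38 to 2.74). In both comparisons the intervals of the 3 lineages overlapped. With a TMM scaling, the Reactivated epiblast and endoderm log2 ratios of Cdk4 were 1.17 and 1.05, past 2-fold.

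Cdk6 (chr5:3341004-3531008), the other partner of D cyclins, was low and was highest in epiblast at each stage, although its intervals in epiblast and trophoblast overlapped in both diapause libraries. Its epiblast CPM was 9.10 at EDG7.5 (5.95 to 13.3), 8.75 at EDG9.5 (5.48 to 13.25), 23.8 for Reactivated (18.2 to 30.6) and 17.4 at E5.5 (15.8 to 19.2). Reactivated and E5.5 were higher with no overlap of intervals, by 2.72 times for Reactivated over EDG9.5 (1.65 to 4.65), although the log2 ratio with 10 CPM added was 0.85. Endoderm had 0 UMIs in both diapause libraries, where 3 UMIs would be 0.921 and 0.814 CPM, 2 UMIs for Reactivated and 128 UMIs (4.72 CPM) at E5.5, at least 5.8-fold higher than EDG9.5 when 3 UMIs stand for 0. Of those 128 UMIs, 88 lay in the cluster led by Apoc2 and Apln, at 9.72 CPM (7.80 to 11.98). The trophoblast list in endoderm was at 116.4 CPM at EDG9.5 and 701.1 at E5.5, and the epiblast list at 404.8 and 424.8. Their part in the endoderm Cdk6 value was not tested, although E5.5 trophoblast had less Cdk6 than E5.5 endoderm. Trophoblast went the other way in CPM, with 5.45 (3.23 to 8.61), 4.45 (2.72 to 6.87), 1.01 (0.122 to 3.63, from 2 UMIs) and 1.21 (0.861 to 1.64). The Reactivated interval there overlaps both diapause ones, and that of E5.5 lies below them. The log2 ratios to EDG9.5 were -0.39 and -0.37, short of 2-fold.

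Cdk2 (chr10:128697938-128705051), the kinase of cyclin E, followed its cyclin only in part. From EDG9.5 to Reactivated both were higher in every lineage. Cdk2 stayed within 2-fold, with log2 ratios of 0.57 in epiblast, 0.425 in endoderm and 0.15 in trophoblast, where its intervals overlapped. At E5.5, Cdk2 in epiblast and endoderm was below both diapause libraries, while Ccne1 was above them. The epiblast CPM of Cdk2 was 252 at EDG7.5 (234 to 271), 174 at EDG9.5 (158 to 191), 264 for Reactivated (244 to 284.5) and 116 at E5.5 (112 to 121). Endoderm had 247.5, 216, 293 and 132 CPM, and trophoblast had 189.6, 100.1, 112 and 132 CPM. E5.5 was lower than Reactivated by 2.27 times in epiblast (2.08 to 2.47) and 2.22 times in endoderm (2.09 to 2.37), while trophoblast E5.5 was 1.18 times Reactivated (1.03 to 1.35). Within diapause, Cdk2 in trophoblast had the largest difference among the values with at least 20 UMIs over both sums. There EDG9.5 was at 0.528 times EDG7.5 (0.467 to 0.597), still within 2-fold. The share of mitochondrially encoded UMIs in trophoblast was 10.55% at EDG7.5 and 8.99% at EDG9.5, and its part in that difference was not tested.

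Cdkn1b (p27, chr6:134920401-134925525), the inhibitor tied to quiescence, was high in diapause in epiblast and endoderm and lower in both other libraries. Its endoderm CPM was 236 at EDG7.5 (219 to 253), 276.5 at EDG9.5 (259.7 to 294), 157 for Reactivated (146 to 169) and 76.3 at E5.5 (73.0 to 79.6). Its epiblast CPM was 214 (198 to 232), 227 (209 to 246.5), 92.5 (81.1 to 105) and 52.9 (50.0 to 56.0). In both lineages the order was diapause, then Reactivated, then E5.5, with no overlap between diapause and the others. Reactivated was 2.46 times lower than EDG9.5 in epiblast (2.11 to 2.87) and 1.76 times lower in endoderm (1.596 to 1.94), and E5.5 was 4.29 times lower in epiblast (3.88 to 4.74) and 3.63 times lower in endoderm (3.36 to 3.91).

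The lower CPM of Cdkn1b is a lower share of UMIs. The EDG9.5 epiblast gave 571 Cdkn1b UMIs from 582 cells and the Reactivated epiblast 237 UMIs from 205 cells, so the number per cell was not lower, while the median total per cell was 4080.5 and 12530 UMIs. Depth of sequencing and RNA content of the cell cannot be told apart in these totals. The share of epiblast cells with a Cdkn1b UMI was 55.5% at EDG9.5 and 63.4% for Reactivated, and 19.2% and 11.2% after thinning. After thinning the epiblast log2 ratio was -0.87, and with TMM scaling it was also short of 2-fold. The same limit holds in endoderm, with 1019 UMIs from 870 cells at EDG9.5 and 734 from 303 cells for Reactivated. There the share of cells with a Cdkn1b UMI was 61.0% and 84.5%, and 26.9% and 13.2% after thinning. In trophoblast the number per cell was lower, with 242 UMIs from 950 cells and 23 from 163 cells.

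Trophoblast held less Cdkn1b, with 48.75 CPM at EDG7.5 (41.5 to 56.9), 53.8 at EDG9.5 (47.2 to 61.0), 11.55 for Reactivated (7.32 to 17.3, from 23 UMIs) and 39.0 at E5.5 (36.9 to 41.15). The Reactivated library was below the 3 others: 4.66 times lower than EDG9.5 (3.03 to 7.49), and E5.5 was 3.37 times Reactivated (2.24 to 5.34). Endoderm exceeded trophoblast by 4.84 times at EDG7.5, 5.14 times at EDG9.5, 13.6 times for Reactivated and 1.96 times at E5.5.

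Cdkn1a (p21, chr17:29090979-29100722), the p53-responsive inhibitor, was a trophoblast and epiblast gene in diapause. Its trophoblast CPM was 95.99 at EDG7.5 (85.7 to 107), 109.8 at EDG9.5 (100.4 to 120.0), 15.6 for Reactivated (10.6 to 22.1) and 5.85 at E5.5 (5.05 to 6.73). Reactivated was 7.05 times lower than EDG9.5 (4.91 to 10.5) and E5.5 18.8 times lower (15.9 to 22.3). Here the number of UMIs per cell was lower too, with 494 UMIs in 950 cells at EDG9.5 and 31 UMIs in 163 deeper cells for Reactivated. The share of trophoblast cells with a UMI was 33.4%, 28.5%, 12.9% and 4.02%, and after thinning 8.31%, 8.53%, 2.45% and 0.827%. The thinned endoderm shares were 0.690%, 1.26%, 0.330% and 0.434%, so the Reactivated and E5.5 trophoblast shares were nearer those of a lineage with little Cdkn1a.

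In epiblast Cdkn1a was at 66.5 CPM at EDG7.5 (57.4 to 76.7), 60.4 at EDG9.5 (51.2 to 70.85), 58.9 for Reactivated (49.9 to 69.1) and 19.5 at E5.5 (17.7 to 21.3). The first 3 libraries overlapped, so the Reactivated epiblast had diapause levels of Cdkn1a while its Cdkn1b was lower. The ratio of Reactivated to EDG9.5 was 0.975 for Cdkn1a (0.773 to 1.23) and 0.407 for Cdkn1b (0.349 to 0.475), and these intervals do not overlap. Endoderm held 11.98, 14.65, 3.001 and 6.38 CPM of Cdkn1a. The endoderm value for Reactivated rested on 14 UMIs and was 4.88 times lower than EDG9.5 (2.67 to 9.52), with a log2 ratio of -0.92. In epiblast the log2 ratio of E5.5 to EDG9.5 was -1.26, and -0.87 with 30 CPM added.

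Rb1 (chr14:73192858-73325951), the substrate of the G1 kinases, was low in every sum, from 1.39 to 9.80 CPM and from 3 to 111 UMIs. Its epiblast CPM was 9.80, 9.54, 1.95 and 4.66 from EDG7.5 to E5.5, its endoderm CPM 7.06, 8.14, 3.001 and 4.09, and its trophoblast CPM 4.54, 7.12, 1.51 and 1.39. Reactivated was below EDG9.5 in each lineage, by 4.89 times in epiblast (1.83 to 16.4), 2.71 times in endoderm (1.39 to 5.54) and 4.72 times in trophoblast (1.48 to 24.1). With 10 CPM added none of these reached 2-fold, since the levels are below the amount added.

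The balance of cyclin and inhibitor transcripts gives the same data as counts within a library, compared across libraries only. For each 100 UMIs of Cdkn1b, the epiblast had 7.68 UMIs of Ccne1 at EDG7.5, 5.78 at EDG9.5, 279 for Reactivated and 725 at E5.5. The endoderm had 19.1, 13.05, 68.4 and 138, and the trophoblast had 7.45, 7.44, 1196 and 955. In trophoblast the diapause values rest on 12 and 18 Ccne1 UMIs and the Reactivated one on 23 Cdkn1b UMIs. The trophoblast intervals of Reactivated (780.6 to 1918) and E5.5 (901.7 to 1012) overlap. For each 100 UMIs of Cdk4, Cdkn1b had 62.5 at EDG9.5 and 14.1 for Reactivated when read in epiblast. The same counts were 97.6 and 34.25 for endoderm and 30.2 and 4.07 for trophoblast. These ratios do not depend on the library totals.

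Genes of G2 and M phase were also higher in the Reactivated and E5.5 libraries than in diapause, in every lineage. The summed CPM of 26 such genes was 2772, 2241, 5942 and 5365 for epiblast from EDG7.5 to E5.5. It was 2611, 1511, 4619 and 4599 for endoderm and 301.3, 480.5, 3268 and 5244 for trophoblast. From Reactivated to E5.5 this sum was not higher in epiblast and endoderm, although Ccne1 per 100 UMIs of Cdkn1b was. The trophoblast of diapause thus had the lowest sums of both this list and Ccne1. From EDG9.5 to Reactivated 16 of 26 genes of the list were higher in epiblast, 18 of 26 in endoderm and 24 of 25 in trophoblast, and 0 were lower. The part of the share of dividing cells in the values of the G1 genes was not tested.

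Within diapause, however, clusters differed widely in this list, and the levels of the G1 genes there are a description, since the clusters were drawn from all variable genes. In the EDG7.5 epiblast the cluster of 69 cells led by Nusap1 and Ccnb2, with 9495 CPM of the list, had 309 CPM of Cdkn1b (266 to 357), against 191 (160 to 226) in the cluster with the least, 814 CPM. In the EDG7.5 endoderm the cluster of 95 cells led by Ccna2 and Mki67 (10550 CPM of the list) had 342 CPM of Cdkn1b (299 to 389), against 207 (189 to 225) where the list was at 514 CPM. In the EDG9.5 epiblast the values were 359 (302 to 424) and 203 (184 to 223). So in these 3 sums Cdkn1b was higher in the cluster with most mitotic transcripts. The EDG9.5 endoderm was the exception, with 215 CPM in the cluster of most G2 and M phase transcripts, led by Spink3 and Cubn, and 281.5 in that of least.

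The dividing epiblast clusters of diapause did not have the Ccnd1 or Ccne1 levels of the Reactivated epiblast. Ccnd1 was at 48.9 CPM (32.8 to 70.2) in the dividing EDG7.5 epiblast cluster and 12.8 CPM (4.165 to 29.9, from 5 UMIs) in that of EDG9.5. Ccne1 was at 15.2 CPM (6.94 to 28.8, from 9 UMIs) in the dividing EDG7.5 epiblast cluster. It was at 18.0 CPM (7.22 to 37.0, from 7 UMIs) in that of EDG9.5 and 12.2 CPM (7.99 to 17.9) in the rest of the EDG9.5 epiblast, which overlap. In the Reactivated epiblast the clusters with 6179 and 5837 CPM of the list had 366 and 310.0 CPM of Ccnd1 and 302 and 224 CPM of Ccne1. Endoderm differed from this. Ccnd1 was low in its clusters at each stage, and the EDG9.5 endoderm cluster of most G2 and M phase transcripts had 67.8 CPM of Ccne1 (49.99 to 89.9). That interval overlaps the 77.2 CPM (61.7 to 95.3) of the Reactivated endoderm cluster with the least, and lies below the 145.9 CPM (127.8 to 165.9) of the one with the most.

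Trophoblast clusters differed in Ccnd1 and Cdkn1a in EDG9.5, and the clusters compared in EDG7.5 were of other kinds. In EDG9.5 the cluster of 420 cells led by Gjb2, with the least G2 and M phase transcripts, had 4.30 CPM of Ccnd1 and 146.0 of Cdkn1a. The cluster of 188 cells led by Csta and Sct, with the most, had 31.8 CPM of Ccnd1 and 93.9 of Cdkn1a. In EDG7.5 the cluster with the least had 8.25 CPM of Ccnd1 (2.68 to 19.25) and that with the most 11.2 (5.81 to 19.6), which overlap. Cdkn1a was at 52.8 CPM (36.1 to 74.5) in the cluster with the least and 82.4 (66.1 to 101.5) in that with the most. Both are led by H19 and Msx1, and they held 32 and 88 of the 317 Cdkn1a UMIs of that trophoblast. The larger part lay in the cluster of 265 cells led by BC051665, S100a16 and Gjb2, which is not in this comparison. The EDG9.5 pair did include a Gjb2 cluster, so the pairs are not alike. In the Reactivated trophoblast a cluster of 33 cells led by BC051665 had 738 CPM of the list, 50.2 of Ccne1 (29.25 to 80.4) and 2.95 of Cdkn1b, while the cluster of most G2 and M phase transcripts had 122 CPM of Ccne1 (99.4 to 148). In E5.5 the cluster led by Prl3d1, a gene of trophoblast giant cells, had 439 CPM of Ccne1 (420.0 to 458) and 13.02 CPM of Ccnd3. The E5.5 endoderm cluster led by Lama1 and Fst had 27.1 CPM of Ccnd2 and 50.25 of Ccnd3. The one led by Apob and Afp had 0.348 and 10.96. These had the most and the least G2 and M phase transcripts of that lineage, but their sums were close, at 5310 and 4385 CPM.

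**Figure D4:**
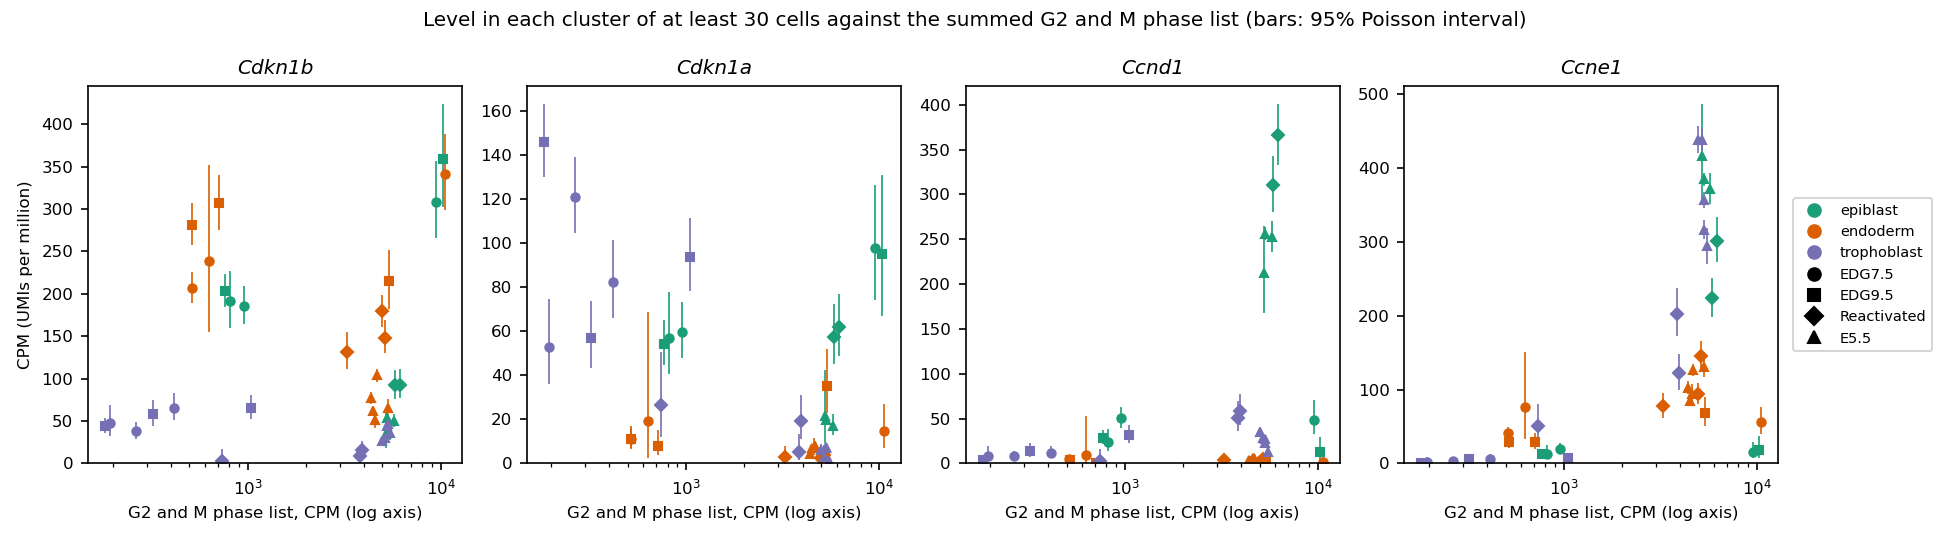
CPM of Cdkn1b, Cdkn1a, Ccnd1 and Ccne1 (y axes) in each cluster of at least 30 cells against the cluster's summed CPM of the G2 and M phase list (x axis, log scale), with colour for lineage and shape for library. The diapause clusters of epiblast and endoderm with the largest G2 and M phase sums have Cdkn1b at 215 to 359 CPM, and clusters of E5.5 have less.

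Other genes of the pathway were read from 9 lists, beside all measured genes of Reactivated over EDG9.5, of which 8.33% were 2-fold higher and 18.8% lower for epiblast. For endoderm these shares were 6.31% and 11.9%, and for trophoblast 11.1% and 12.9%. Of 9 other cyclins and CDK activators, 4 were 2-fold higher in epiblast, 2 in endoderm and 3 in trophoblast of Reactivated over EDG9.5, and 0 were lower. The highest was Cks1b in epiblast, a small CDK subunit that helps the SCF-SKP2 ubiquitin ligase recognise p27, at 101 CPM at EDG9.5 and 743 for Reactivated (log2 ratio 2.76). Ccna2 (cyclin A2) led in endoderm and trophoblast, with log2 ratios of 1.89 and 3.38. Of 20 genes that E2F transcribes at G1/S, 9 were higher in epiblast and 5 in endoderm, and of the 19 measured in trophoblast 15 were higher, with 0 lower in each. Their median log2 ratios were 0.94, 0.79 and 1.70, where those of all genes were -0.26, -0.18 and -0.09. Rrm2, a subunit of ribonucleotide reductase, was highest in epiblast (3.08) and endoderm (2.16).

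Of 9 measured ubiquitin ligase genes of p27 and the cyclins, 4 were higher in epiblast and 2 in endoderm, as were 2 of 8 in trophoblast, with 0 lower. Skp2, the F-box protein that binds p27, was at 10.45 CPM in the trophoblast of EDG9.5, 55.8 for Reactivated and 218 at E5.5. In epiblast it was at 51.3, 116 and 166 CPM in the same order, and in endoderm at 53.99, 70.1 and 209.8 CPM, so in endoderm Reactivated stayed within 2-fold of EDG9.5 (log2 ratio 0.32). Of the RB relatives, E2F and DP factors, 3 of 12 were higher in epiblast and 0 lower, 0 of 11 higher and 1 lower in endoderm, and 3 of 11 higher and 1 lower in trophoblast. E2f8, a repressive E2F, was highest in epiblast (log2 ratio 2.14), and Tfdp2, a DP partner, was lowest in endoderm (-1.67) and trophoblast (-1.49). Of the MuvB, B-MYB and FOXM1 genes, 0 of 7 were higher and 2 lower in epiblast, 1 higher and 1 lower in endoderm, and 0 either way in trophoblast.

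The list of p53 and its targets other than Cdkn1a had 2 higher and 6 lower of 17 in epiblast, 0 and 4 of 17 in endoderm, and 2 and 2 of 14 in trophoblast. Btg2, an antiproliferative p53 target, was its lowest gene in each lineage, with log2 ratios of -1.96, -2.29 and -2.59. In epiblast Btg2 was therefore lower while Cdkn1a was at its diapause level. Trp53 itself was the highest of the list in epiblast, at 1.49. Of MYC and MXD factors, 2 were higher and 1 lower of 9 in epiblast, 0 and 2 of 9 in endoderm, and 0 and 1 of 7 in trophoblast. Myc was at 121 CPM in EDG9.5 endoderm and 4.50 in Reactivated endoderm (-3.17).

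The other CDK inhibitors had 0, 1 and 1 higher of 4 measured in epiblast, endoderm and trophoblast of Reactivated over EDG9.5, and 0 lower. In E5.5 over EDG9.5 they had 1, 2 and 2 higher and 1, 1 and 0 lower of 6, where all measured genes had 7.91%, 6.75% and 12.7% higher and 14.1%, 9.52% and 9.16% lower. Cdkn1c (p57), the imprinted CIP/KIP member, was the highest in each lineage, from 21.5 to 54.2 CPM in epiblast, 2.98 to 87.45 in endoderm and 6.23 to 195 in trophoblast. The epiblast log2 ratio was just past 2-fold, at 1.03. In endoderm the cluster led by Apoc2 and Apln, 951 of 2994 cells, held 2006 of the 2371 Cdkn1c UMIs, at 221.6 CPM, while the cluster led by Lama1 and Fst had 1.16 CPM (0.239 to 3.39). So the higher endoderm sum was not shared by all its clusters. Cdkn2d, an INK4 inhibitor of CDK4 and CDK6, was lowest in epiblast, at 34.2 and 8.67 CPM, and in endoderm, at 55.6 and 20.2 CPM.

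For each gene the most similar genes were taken by Pearson correlation of log2(CPM + 10) over the 12 lineage and library sums, among 6225 candidates. These sums share libraries, depths and cells, so the coefficients only describe the pattern. Ccne1 was most like Fbl (0.995), Yars2 (0.984) and Ncl (0.981), of which Fbl and Ncl are nucleolar proteins of ribosome production. Ccnd1 was most like Snrpn (0.978) and Sms (0.948), Cdk4 like Glo1 (0.969), Cdkn1b like Rnf216 (0.976) and Arntl (0.958), and Cdkn1a like Diap1 (0.961). Cdk2 was most like Ubald2 (0.948), Ccnd2 like Itga3 (0.915), Ccnd3 like Nup62cl (0.887), Cdk6 like Pml (0.942) and Rb1 like Mysm1 (0.969). Among the 10 genes themselves, Ccnd1 and Cdk6 had 0.846, Ccne1 and Cdk4 0.757, Cdk2 and Cdkn1b 0.721, Ccne1 and Cdkn1a -0.654, and Ccne1 and Rb1 -0.725.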

How the data were processed

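The deposited files list whole-number counts per gene and cell barcode for 4 libraries, which the authors produced. The submitters' processing notes name featureCounts 1.6.4 (Subread), STAR 2.7.1a, UMI-tools 1.0.1 and the mm10 build, and since UMI-tools is among them the values were treated as UMI counts. How barcodes were chosen, which annotation was used and whether strand was counted: not given in the sources used here. Of 25437 gene names, 21344 match a symbol of RefSeq's GRCm38.p6 gene table, the source of positions and promoters.

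A cell was kept with 1000 UMIs or more, 500 genes or more and a mitochondrially encoded share under 25%, which left 1670 cells for EDG7.5, 2458 for EDG9.5, 673 for Reactivated and 9541 for E5.5. Scrublet in scanpy 1.11.5 then marked 12, 7, 2 and 278 doublets, which were removed. Each library was clustered alone (log CPM, 2000 variable genes, 30 principal components, 15 neighbours, Leiden resolution 1 with igraph 0.11.9). A cluster took a lineage name when that marker list led all others by 0.5 log2 or more and had 3 or more markers above 20 CPM. In EDG9.5, 49 cells stayed unnamed. The authors' own clusters were not used, so both clusters and lineage names come from this reconstruction.

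Each lineage's UMIs in a library were added up and scaled to CPM, with exact Poisson, Clopper-Pearson or conditional binomial intervals (scipy 1.17.1, numpy 2.4.6, pandas 2.3.3, Python 3.11.15, figures with matplotlib 3.10.9). Depth per lineage sum was 1990829 to 33184649 UMIs. Ratios were computed by a routine checked on simulated counts. Doublet removal, the cell filters, the clustering, the scaling (TMM with edgeR 4.0.16) and the added CPM were varied in 15 alternatives. The 10 genes and all gene lists were chosen with earlier results of these data known. Named besides the 10 genes were, in each list and comparison, the highest, lowest and most abundant gene, the 3 genes most like each of the 10 among those with at least 50 CPM in 1 sum, and the clusters of highest and lowest G2 and M phase sum. Genes named to locate a cluster are among its leading genes. The E5.5 cluster led by Prl3d1 has the lowest G2 and M phase sum of its lineage, at 4968 CPM, close to the highest at 5492. Skp2 in every lineage and the E5.5 endoderm cluster led by Apoc2 were named after their values were seen.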

Additional observations from a re-analysis of the deposited data

How the results depend on the processing

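No paired analysis was possible because each stage has 1 library, and no replicate could be left out. Under 15 alternatives no log2 ratio past 2-fold changed direction. Of the counts of values past 2-fold, 113 stayed within 1.5 times of the reported count and 7 moved. The limit of 500 UMIs and 250 genes kept the same cells as the main setting, so its 8 counts could not move. Thinning each cell to 1000 UMIs made 1 value lower in EDG9.5 over EDG7.5, where 0 was reported. It was Ccnd1 in epiblast, at -1.18. With 1 CPM added in place of 10, lower values numbered 8 in Reactivated over EDG9.5, 8 in E5.5 over EDG9.5 and 8 in E5.5 over Reactivated. With 30 CPM added, lower values numbered 3 in E5.5 over EDG9.5 and 1 in E5.5 over Reactivated, and 1 was higher in E5.5 over Reactivated. A smaller added amount lets genes of few UMIs pass, and a larger one holds them back.

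With 30 CPM added, Ccnd2 in epiblast and Ccnd1 in trophoblast were each at 0.74 in Reactivated over EDG9.5. In E5.5 over EDG9.5, Cdkn1a in epiblast was then at -0.87, Ccnd2 in endoderm at -0.54 and Ccnd3 in trophoblast at 0.61. Ccnd2 there was also short of 2-fold with TMM factors (-0.90) and after thinning (-0.93), and Ccnd3 with a mitochondrial limit of 10% (0.95) and a Leiden resolution of 0.5 (0.96). In E5.5 over Reactivated, 30 CPM added gave 0.73 for Cdkn1b in trophoblast, -0.57 for Ccnd2 and -0.85 for Cdkn1a in epiblast, and -0.997 for Cdk2 in endoderm, and thinning gave -0.94 for Cdk2 in epiblast. In Reactivated over EDG9.5, Cdkn1b in epiblast was at -0.88 with TMM factors and -0.87 after thinning. The TMM scaling moved the median log2 ratio of all genes in that comparison from -0.26 to -0.03 in epiblast. Of the log2 ratios of single genes 1477 stayed within their counting interval and 162 moved, as did 26 of the D cyclin shares against 262 that stayed. These totals pool all alternatives, also some that could not move a value. The limit of 500 UMIs and 250 genes kept the same cells, and gave 113 of the ratios and 36 of the shares that stayed. A minimum of 50 UMIs in the 2 sums, or none, changes only which ratios count as measured. These settings gave 101 and 113 of the ratios that stayed. Among the other alternatives the moves were uneven. Thinning to 1000 UMIs moved 40 log2 ratios where 34 stayed, and 20 D cyclin shares where 16 stayed. Adding 1 CPM moved 49 log2 ratios where 64 stayed, and adding 30 CPM moved 33 where 80 stayed. With doublets kept, Ccnd1 gave 30.7% of D cyclin UMIs in E5.5 endoderm instead of 17.7%. Clustering without the 10 genes and the pathway lists left the counts within 1.5 times. With a mitochondrial limit of 10% or a Leiden resolution of 0.5, part of the E5.5 trophoblast stayed unnamed. Depth limits Rb1, Cdk6 and Ccnd2, whose sums hold 0 to 404 UMIs.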
